A study of Bos taurus with 8 samples.

Results

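The genes described here are 35 genes of mitosis and the spindle, taken from a list of gene symbols and read in rumen epithelium. A gene is a member by its symbol, with no threshold on a measured value, although the list was drawn up with earlier results of these data known. Of the 35 genes, 33 had a probe on the bovine array, 1 probe each, among 15008 probes in all, and 29 passed a background filter, being clearly detected on 4 or more of the 8 arrays. TOP2A, the topoisomerase that untangles sister chromosomes, and CENPA, the histone that marks centromeres, were found under no probe name. UBE2C, PTTG1, KIF11 and ECT2 had a probe but did not pass the background filter and were not tested. Every count below is over the 29 tested genes, not over the list.

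The study fed rumen-fistulated Holstein bull calves, 7.4 ± 0.3 months old (the error as the series text gives it), on a high-grain control diet based on corn flakes and on a diet in which wood kraft pulp (WP), a fibre source, took the place of part of the corn flakes. Each calf received both diets, 14 days each, with no wash-out between them, so grain feeding is shared by both groups and the second diet of a calf followed directly on the first. RNA of the rumen epithelium from calves 21, 23, 24 and 25 was hybridised on 8 Agilent arrays of 1 colour, so that each diet has 4. The series text names 5 bulls, while the arrays come from these 4 calves. Which diet a calf ate first is not stated in its labels. A single slide held the arrays: row 1 held the WP arrays of calves 21 and 23 and the control arrays of calves 24 and 25, and row 2 held the other 4. The slide row is therefore the same split of the arrays as a diet difference that is opposite in calves 21 and 23 and in calves 24 and 25, and these cannot be told apart.

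In mitosis, cyclin B with CDK1 drives entry, the kinetochore couples chromosomes to spindle microtubules, and the spindle assembly checkpoint holds the anaphase-promoting complex in check until every chromosome is attached. The complex then destroys securin and cyclin B, the sister chromatids part, and the central spindle and anillin ring divide the cell. Most of these genes are transcribed late in the cell cycle, under the FOXM1 and B-MYB-MuvB factors, so their RNA is widely used as a readout of dividing cells, which in a stratified epithelium such as the rumen lie mainly in its basal layers. In RNA from bulk tissue, fewer dividing cells and less RNA per cell cannot be told apart.

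The measurement of each gene rests on 1 probe of 60 bases, and the probes of 8 genes are shown here as examples. The first 4 belong to genes whose levels split by calf pair as described below.
CCNB2: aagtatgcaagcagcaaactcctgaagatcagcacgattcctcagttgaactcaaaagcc
BUB1: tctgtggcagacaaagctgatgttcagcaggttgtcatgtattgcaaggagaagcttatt
TTK: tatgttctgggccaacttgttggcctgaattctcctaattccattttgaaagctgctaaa
AURKB: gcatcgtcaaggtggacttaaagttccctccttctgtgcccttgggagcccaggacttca
The other 4 belong to genes that tracked the rest more closely once the WP array of calf 24 was set aside, and of these HMMR also split by calf pair.
CDC20: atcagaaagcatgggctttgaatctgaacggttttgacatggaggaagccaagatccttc
HMMR: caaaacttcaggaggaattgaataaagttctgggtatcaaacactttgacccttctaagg
TPX2: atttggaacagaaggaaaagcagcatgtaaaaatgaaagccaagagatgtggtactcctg
NDC80: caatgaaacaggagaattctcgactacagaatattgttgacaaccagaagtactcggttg
Sequences and positions are those of the array's design, in the orientation of the scanner files, on UMD 3.1. The CCNB2 probe lies at chr10:51247956-51248015 on the minus strand, BUB1 at chr11:1567453-1567512 on the plus strand and TTK at chr9:19988773-19988832 on the plus strand. The AURKB probe spans chr19:28448698-28448915 on the minus strand, 218 bases of genome for 60 bases of probe, so it joins separate stretches of the genome. CDC20 lies at chr3:103241579-103241638 on the minus strand, HMMR at chr7:77302326-77302385, TPX2 at chr13:61862815-61862874 and NDC80 at chr24:37295507-37295566, these 3 on the plus strand. All 8 probes have an open reading frame in the sense direction, as do 29 of the 33 probes of the gene set and 12946 of all 15008 probes. Median GC content was 41.7% over the 33 probes and 45% over all probes, and exon or UTR position was not analysed here.

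Levels are log2 of the processed signal relative to the 75th percentile of the same array, so 0 is the level of that percentile, and no probe's level is set against another's. Of the 29 tested genes, 28 were above background on all 8 arrays. NDC80 was above background on 4 arrays, 3 control and 1 WP. Between 9314 and 11990 probes per array were above background, and no spot was saturated. The WP array of calf 24 stood apart: the median signal of its negative control spots was 4.06, against 1.20 to 1.90 on the others, and 73 of its spots carried an outlier flag, against 2 to 6. KRT5, KRT14 and TP63, markers of basal keratinocytes, and the epithelial genes EPCAM and CDH1 were above background on all 8 arrays. Among the other basal genes, COL7A1 was above background on 6 arrays and ITGA3 did not pass the filter. The fibroblast genes COL1A2 and COL3A1 and the macrophage gene AIF1 were also above background on all 8 arrays.

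The 29 genes moved together from array to array. After each gene was set to its own mean, their median level was 0.56 on the control array of calf 24 and 0.56 on the WP array of calf 21, the pair of highest arrays, and 0.31 on the control array of calf 21. It was 0.12 on the control array of calf 25 and -0.22 on the WP array of calf 23. The lowest medians were -0.57 on the control array of calf 23, -0.44 on the WP array of calf 24 and -0.32 on the WP array of calf 25. High and low arrays thus occurred on both diets. Over the 8 arrays the genes had a median range of 1.33 log2 units, against 0.84 for all tested probes.

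**Figure D1:**
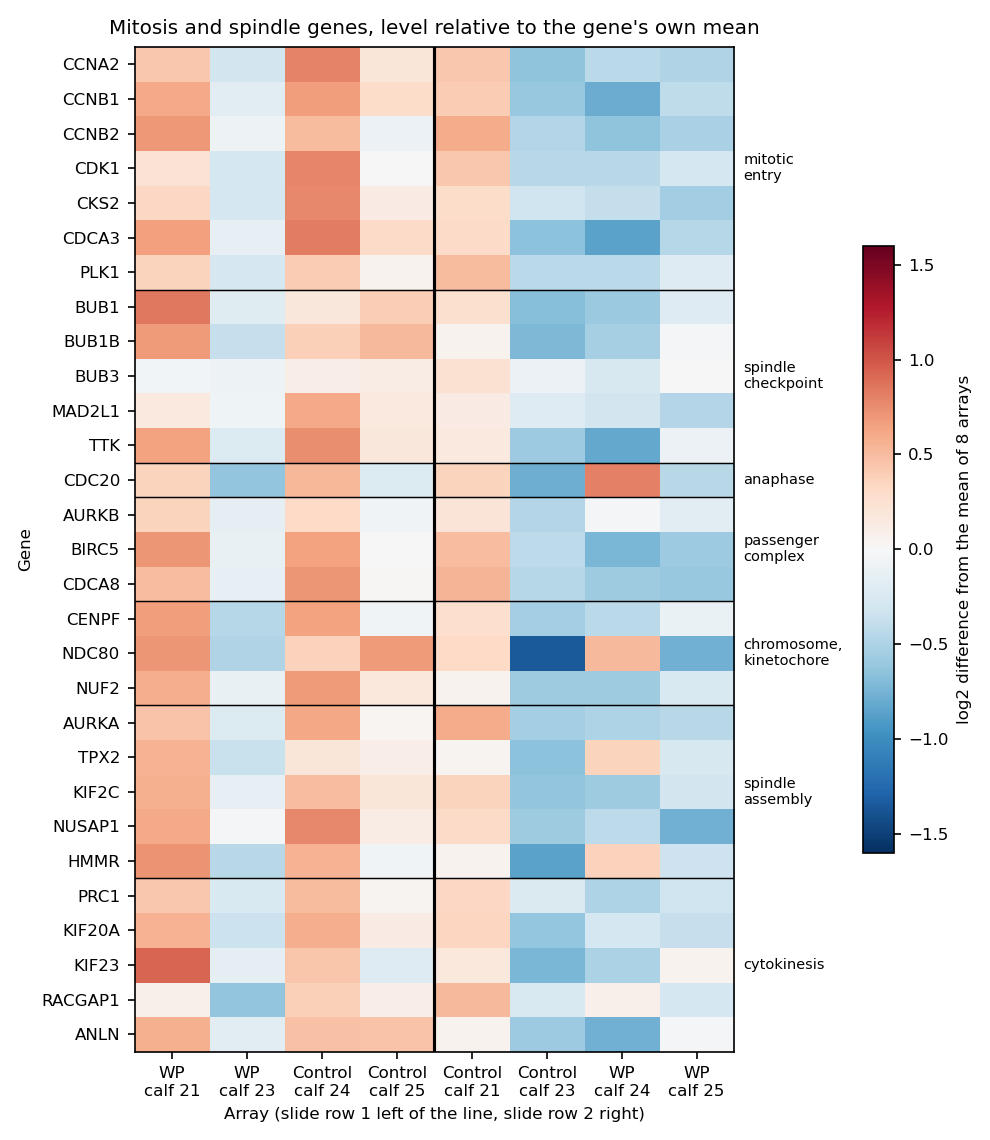
Each row is 1 of 29 mitosis genes, grouped by role, and each column is 1 of 8 arrays, with slide row 1 left of the vertical line and row 2 right of it; colour is the log2 difference from the gene's mean over the 8 arrays. Most genes are red on the WP array of calf 21 and the control array of calf 24 (median 0.56 on both) and blue on the control array of calf 23 (median -0.57), while CDC20 is highest on the WP array of calf 24.

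Between pairs of these genes the median Pearson r over 8 arrays was 0.822 (406 pairs, interquartile range 0.649 to 0.918), against 0.0420 for all pairs of tested probes with a value on every array. No pair was below 0, against 46.6% of all pairs, and 55.2% of pairs were over 0.8, against 2.55%. Pairs share the same 8 arrays, their scaling and 4 calves, so these r are a description and the genes are not independent replicates. Without the WP array of calf 24 the median r was 0.878 (0.0183 for all probes), and over the 14 genes with a median signal of at least 100 it was 0.919 (0.0110); both subsets were chosen after the values were seen.

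**Figure D2:**
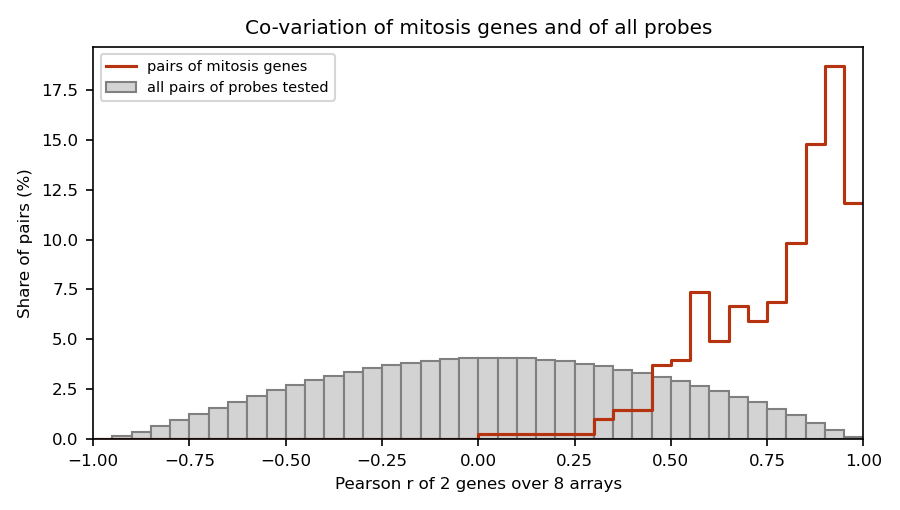
Horizontal axis, Pearson r of a pair of genes over 8 arrays; vertical axis, share of pairs in percent. The red line is the 406 pairs of mitosis genes, with median r 0.822, and the grey bars are all pairs of tested probes, with median 0.0420.

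The gene that tracked the others most closely was KIF20A, the kinesin that carries regulators to the central spindle, with r of 0.994 to the mean of the other genes. CCNA2 (0.980), KIF2C (0.974) and AURKA (0.963) came next. Of the 29 genes, 23 had r over 0.8. The remaining 6 were CDC20 (0.537), BUB3 (0.617), RACGAP1 (0.683), TPX2 (0.683), NDC80 (0.709) and HMMR (0.764). Without the WP array of calf 24, r was 0.960 for CDC20, 0.962 for HMMR, 0.931 for TPX2 and 0.904 for NDC80, but 0.566 for BUB3 and 0.762 for RACGAP1. BUB3 and RACGAP1 were thus the genes whose levels departed from the group with or without that array. A dim probe was not always a poor follower: CENPF, the large kinetochore protein of late cell cycle, had a median signal of 19.9 and r of 0.944.

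The diets were compared within calves, to ask whether replacing grain with pulp altered the RNA of the dividing epithelium. At an adjusted p of 0.05 limma called 0 of the 29 mitosis genes and 0 of 10236 probes (0%). At an unadjusted p under 0.05 it called 1 of the 29, RACGAP1, which was lower on WP, against 715 probes in all, or 6.99% (1.75% lower and 5.24% higher). The mean difference, WP minus control, was negative for 24 of 29 genes, against 35.6% of all probes. The exceptions were CDC20, AURKB, TPX2, HMMR and KIF23. Over the genes the median difference was -0.25 log2 units, from -0.44 to 0.16, against 0.09 for all probes, and the 2 diets overlapped for all 29 genes, whereas 4.85% of all probes had diets that did not overlap. The genes co-vary, so the 24 are not independent observations. Under the other background correction, scalings and deposited values, 19 to 29 genes were negative. The share over all probes moved too, from 30.4% with normexp background correction (19 genes) to 70.5% with median scaling (29 genes). The gene median minus the all-probe median lay between -0.37 and -0.26, against -0.33 here.

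The sign of the difference was not the same in the 4 calves. In calf 24 the median over the genes was -1.06, which is 2.09-fold higher on the control diet. There 26 of 29 genes were lower on WP, and all probes had a median of 0.14. The size of that gap depended on the processing, and its WP array is the one that stood apart. The calf 24 median was -0.63 with normexp (all probes 0.11) and -1.81 with median scaling (all probes -0.61). In calf 25 the median over the genes was -0.47, or 1.39-fold, with 28 of 29 lower and an all-probe median of -0.00024. In calves 21 and 23 the medians were 0.21 and 0.33, with only 7 and 2 of 29 genes lower, against all-probe medians of 0.12 and 0.028. Without calf 24 the median over the genes was -0.017, with 16 of 29 lower, without calf 21 it was -0.40 and without calf 23 it was -0.42. Within slide row 1 the median difference was -0.19, and within row 2 it was -0.24; these set different calves against each other.

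**Figure D3:**
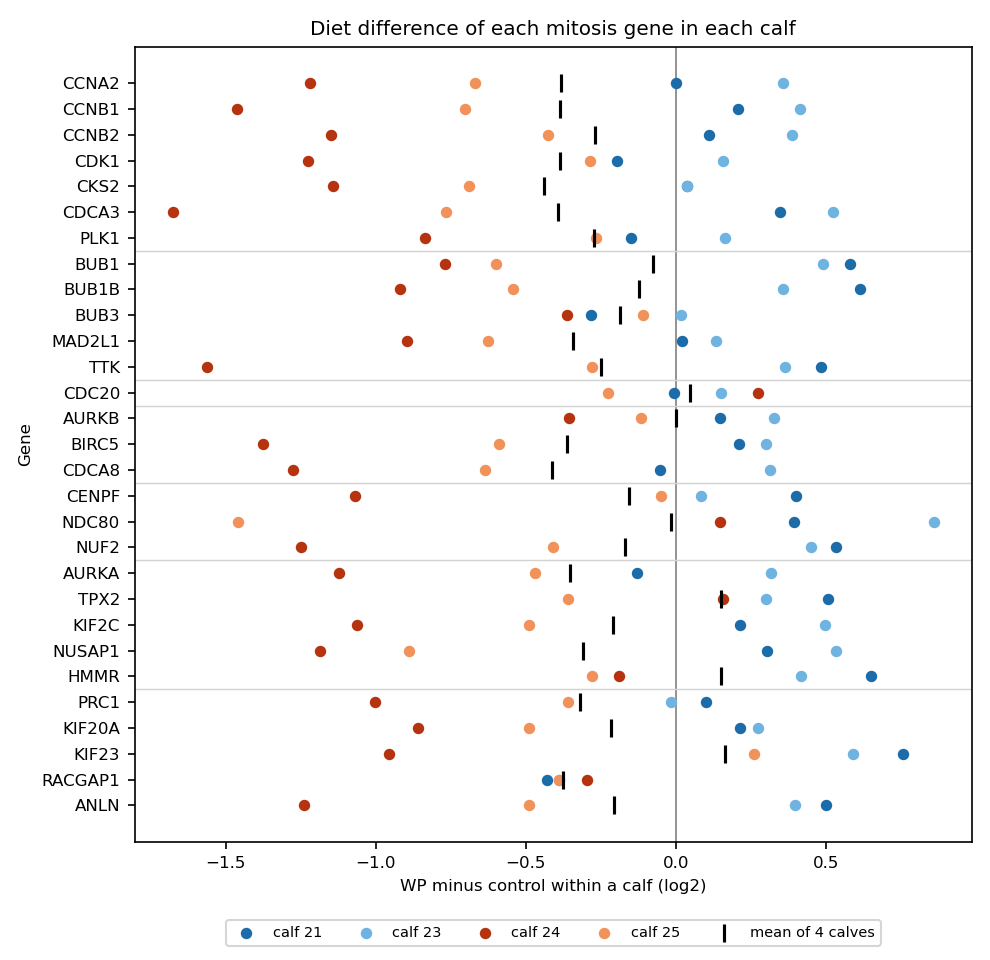
Each row is a mitosis gene, grouped by role; the horizontal axis is WP minus control within a calf in log2 units, with 1 point per calf and a black bar at the mean of 4 calves. Calves 24 and 25 lie mostly left of 0 (26 and 28 of 29 genes) and calves 21 and 23 mostly right of it, while the 4 calves of RACGAP1 lie together between -0.43 and -0.30.

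A total of 18 of the 29 genes were higher on WP in calves 21 and 23 and lower in calves 24 and 25, a split noticed in the values and counted afterwards, against 10.6% of all probes; the reverse split held 10.4% of all probes. Under the other background correction, scalings and deposited values the count was 16 to 19, with all-probe shares of up to 15.6%. The control array of calf 23 was the lowest of the 4 control arrays for 29 of 29 genes (25.3% of all probes). The WP array of calf 21 was the highest of the 4 WP arrays for 27 of 29, BUB3 and CDC20 being the exceptions (21.3% of all probes). For 17 of 29 genes the highest pair of arrays was the control array of calf 24 with the WP array of calf 21, against 2.33% of all probes. These counts were also made after the values were seen and carry no test.

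The 7 genes of mitotic entry had a median difference of -0.39, and all 7 were negative, from -0.44 to -0.27. CKS2, a small CDK-binding subunit, read 2.05, 1.44, 2.53 and 1.89 on the control diet in calves 21, 23, 24 and 25 and 2.09, 1.48, 1.38 and 1.20 on WP. Its control array of calf 24 was the highest of the 8 and both low WP arrays came from calves 24 and 25, so the diets overlapped; the mean difference was -0.44 ± 0.58 (SD, n = 4; limma adjusted p = 0.660). CDK1, the mitotic kinase itself, read -0.18, -1.05, 0.18 and -0.60 on control and -0.37, -0.89, -1.05 and -0.88 on WP in the same order of calves. All 4 WP values lay within the control range, calf 24 had the widest gap between diets, and the mean difference was -0.39 ± 0.59 (SD, n = 4; limma adjusted p = 0.668).

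PLK1, the kinase of centrosome maturation and mitotic exit, read 2.82, 1.88, 2.71 and 2.37 on control and 2.67, 2.05, 1.88 and 2.11 on WP, again in the order of calves 21, 23, 24 and 25. High values came from both arrays of calf 21 and the control array of calf 24, and the diets overlapped, with a mean difference of -0.27 ± 0.42 (SD, n = 4; limma adjusted p = 0.678). CDCA3, a substrate adaptor for the destruction of the entry inhibitor WEE1, had the widest range of the role, 1.68. It read 2.35, 1.38, 2.86 and 2.34 on control and 2.70, 1.91, 1.18 and 1.58 on WP, so calf 24 gave both the highest and the lowest value. Its mean difference was -0.39 ± 1.03 (SD, n = 4; limma adjusted p = 0.754), and without calf 24 it was 0.036.

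CCNB1, cyclin B1, was picked after its values were seen, as the partner of CDK1. It read 0.43, -0.57, 0.70 and 0.33 on control and 0.64, -0.16, -0.76 and -0.38 on WP. Both arrays of calf 21 lay above both arrays of calf 23, while calf 24 went from the highest array to the lowest, with a mean difference of -0.39 ± 0.87 (SD, n = 4; limma adjusted p = 0.726). CCNA2 and CCNB2, the other cyclins, had within-calf differences of 0.00089, 0.36, -1.22 and -0.67, and of 0.11, 0.39, -1.15 and -0.43, for calves 21, 23, 24 and 25. In both, calf 24 had the largest gap, and in both the sign turned between calves 23 and 24.

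In the spindle assembly checkpoint the median difference was -0.18 over 5 genes, from -0.34 to -0.074. MAD2L1, the checkpoint protein that captures CDC20, read 0.35, 0.011, 0.82 and 0.37 on control and 0.37, 0.14, -0.076 and -0.25 on WP. The pattern was that of CKS2, with the lowest values on WP in calves 24 and 25, and the mean difference was -0.34 ± 0.50 (SD, n = 4; limma adjusted p = 0.668). BUB3, the shared partner of BUB1 and BUB1B, varied least of the tested genes, over a range of 0.49. It read 3.26, 2.92, 3.12 and 3.13 on control and 2.97, 2.94, 2.76 and 3.02 on WP, a mean difference of -0.18 ± 0.17 (SD, n = 4; limma adjusted p = 0.676), with the highest level on the control array of calf 21.

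TTK, the kinase that starts checkpoint signalling, had the widest range of the checkpoint genes. It read -2.11, -2.85, -1.52 and -2.08 on control and -1.63, -2.49, -3.09 and -2.36 on WP, with a mean difference of -0.25 ± 0.94 (SD, n = 4; limma adjusted p = 0.828). Calf 24 gave both the highest and the lowest array of the gene, and without that calf the mean difference was 0.19. BUB1, the kinase that recruits checkpoint proteins to kinetochores, was picked after its values were seen for its clear split. It read -1.69, -2.63, -1.77 and -1.56 on control and -1.11, -2.14, -2.54 and -2.16 on WP, highest on WP in calf 21 and lowest on control in calf 23, with a mean of -0.074 ± 0.71 (SD, n = 4; limma adjusted p = 0.941). BUB1B, its pseudokinase relative, had differences of 0.61, 0.36, -0.92 and -0.54 in calves 21, 23, 24 and 25.

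**Figure D4:**
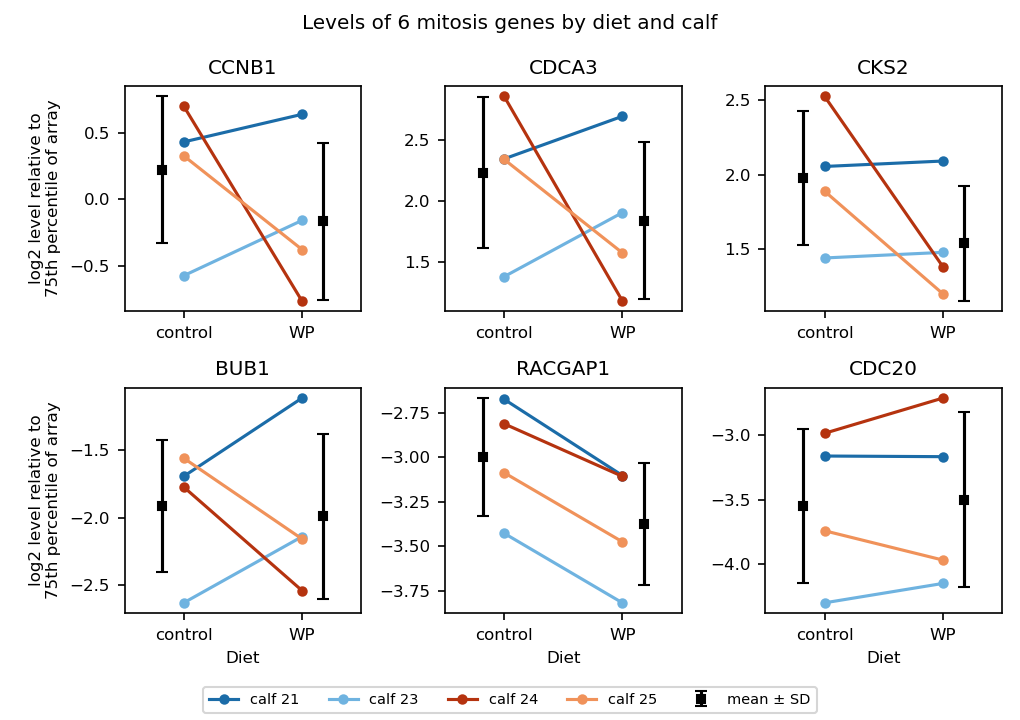
Each panel is 1 gene, with its log2 level relative to the array's 75th percentile on the control and WP diets; coloured lines join the arrays of 1 calf and black squares with bars are the mean and SD of 4 calves. CCNB1, CDCA3, CKS2 and BUB1 cross between calves, RACGAP1 runs down in all 4 calves (mean -0.38), and CDC20 keeps the order of the calves.

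Anaphase was represented by 1 tested gene. CDC20, the activator of the anaphase-promoting complex, read -3.16, -4.30, -2.99 and -3.74 on control and -3.17, -4.15, -2.71 and -3.97 on WP in calves 21, 23, 24 and 25. On both diets calves 21 and 24 were above calves 23 and 25, and the mean difference was 0.048 ± 0.22 (SD, n = 4, limma adjusted p = 0.913). The sign turned under quantile, cyclic loess and median scaling. The probe was dim, with a median signal of 19.0, and its highest array was the WP array of calf 24, which stood apart. The test for a difference between calves gave CDC20 an unadjusted limma p of 0.0023 and an adjusted p of 0.499. UBE2C, the ubiquitin-conjugating enzyme of the complex, was above background on 0 arrays. PTTG1, securin, was above background on 0 control arrays and 2 WP arrays, and no fold is given for either.

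Of the chromosomal passenger complex, which corrects faulty attachments, CDCA8 (borealin) read -1.99, -2.99, -1.83 and -2.51 on control and -2.04, -2.67, -3.11 and -3.15 on WP. Its WP values of calves 24 and 25 were the lowest of the 8, next to control calf 23, and the mean difference was -0.41 ± 0.70 (SD, n = 4; limma adjusted p = 0.676). BIRC5, survivin, the subunit with the widest range, read -0.34, -1.26, -0.20 and -0.83 on control and -0.13, -0.96, -1.58 and -1.42 on WP. The low arrays were the same as for CDCA8, and the mean difference was -0.36 ± 0.78 (SD, n = 4; limma adjusted p = 0.719). AURKB, the kinase of the complex, had differences of 0.15, 0.33, -0.36 and -0.11 in calves 21, 23, 24 and 25, with a mean of 0.00080.

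At the kinetochore, NDC80, the microtubule-binding subunit of the outer kinetochore, read -4.36, -6.01, -4.31 and -3.99 on control and -3.96, -5.15, -4.16 and -5.45 on WP. It passed the filter through 3 control arrays and 1 WP array, so most of its WP values carry no more than a bound, and its mean of -0.015 ± 1.01 (SD, n = 4; limma adjusted p = 0.993) was positive under the normexp background correction. NUF2, the partner of NDC80 in the same complex, was above background on all arrays. Its differences were 0.53, 0.45, -1.25 and -0.41 in calves 21, 23, 24 and 25, a clear split by calf pair. CENPF had differences of 0.40, 0.086, -1.07 and -0.047, largest in calf 24.

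Among the 5 spindle assembly genes the median difference was -0.21. HMMR, a microtubule-associated protein that shapes the spindle with TPX2, read -3.42, -4.33, -2.92 and -3.53 on control and -2.76, -3.92, -3.11 and -3.81 on WP, with a mean of 0.15 ± 0.46 (SD, n = 4; limma adjusted p = 0.811). The WP array of calf 21 was the highest and control calf 23 the lowest. The sign of the mean turned under quantile, cyclic loess and median scaling and without calf 21, and the HMMR probe was dim (median signal 23.8). TPX2, the activator of AURKA at the spindle, was the gene of this role besides HMMR with a positive mean, 0.15. AURKA, the centrosomal kinase that TPX2 activates, had a mean of -0.35 ± 0.61 (SD, n = 4) with differences of -0.13, 0.32, -1.12 and -0.47. KIF2C, a microtubule-depolymerising kinesin, had -0.21 ± 0.70, and NUSAP1, which bundles spindle microtubules, -0.31 ± 0.85; in both, the sign split by calf pair. KIF11, the kinesin that pushes spindle poles apart, was above background on 2 arrays.

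The cytokinesis genes had a median difference of -0.22 over 5 genes. RACGAP1, the GTPase-activating subunit of centralspindlin, was the one gene lower on WP in 4 of 4 calves (5.39% of all probes). It read -2.67, -3.43, -2.81 and -3.09 on control and -3.10, -3.82, -3.11 and -3.47 on WP, so each calf kept its place and the diets still overlapped. Its differences were -0.43, -0.39, -0.30 and -0.39, a mean of -0.38 ± 0.057 (SD, n = 4) with an unadjusted limma p of 0.017 and an adjusted p of 0.658. The probe was dim, with a median signal of 25.8, and the mean was 0.023 under normexp background correction, whereas quantile scaling gave -0.81.

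KIF23, the kinesin that pairs with RACGAP1 in centralspindlin, was higher on WP in 3 of 4 calves. It read -1.43, -2.34, -1.15 and -1.81 on control and -0.68, -1.74, -2.11 and -1.55 on WP, highest on WP in calf 21, with a mean of 0.16 ± 0.77 (SD, n = 4; limma adjusted p = 0.872) that turned negative under quantile and median scaling and without calf 21. PRC1, which cross-links the central spindle, read -1.16, -1.72, -0.99 and -1.45 on control and -1.06, -1.73, -1.99 and -1.81 on WP. Its lowest arrays were WP calves 24 and 25, and the mean was -0.32 ± 0.50 (SD, n = 4; limma adjusted p = 0.676). KIF20A had differences of 0.21, 0.27, -0.86 and -0.49, and ANLN, the anillin of the contractile ring, of 0.50, 0.40, -1.24 and -0.49, both split by calf pair. ECT2, the exchange factor that RACGAP1 recruits, was above background on 3 arrays and was not tested.

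Expressed as row 1 minus row 2 of the slide, with calf and diet in the fit, 28 of 29 genes were positive, against 45.6% of all probes, and RACGAP1 was -0.034. The median was 0.51 over the genes and -0.028 over all probes. No gene passed an adjusted p of 0.05 in limma (0% of all probes), with a lowest adjusted p of 0.273, for NUSAP1. At an unadjusted p under 0.05, 16 of 29 genes were called, all higher in row 1, against 12.9% of all probes in either direction and 5.6% higher in row 1. With a robust, trended variance prior, 6 genes passed the adjusted threshold (CCNA2, CCNB1, CKS2, CDCA3, NUF2 and KIF2C), with 335 probes or 3.27% of all. With median scaling CDCA3 alone passed, with 277 probes or 2.71%. Slide row, calf pair and any order of the diets that matches the pairs cannot be told apart here.

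Between calves, irrespective of diet, no mitosis gene passed an adjusted limma p of 0.05, against 0.00977% of all probes (1 probe). At an unadjusted p under 0.05 the genes were CDC20, HMMR and RACGAP1, 3 of 29, against 4.98% of all probes. CDC20, HMMR and RACGAP1 were also among the genes with r under 0.8 to the mean of the other genes.

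The genes outside the list whose pattern was most like the mean of the mitosis genes, by Pearson r over the 8 arrays, were themselves largely of mitosis. ASPM, a spindle pole protein, had r of 0.990, SKA1, of the outer kinetochore, 0.989, SPAG5, a spindle protein also called astrin, 0.989, and CCNF, cyclin F, 0.986. NCAPG, of condensin, followed at 0.976, CDCA2 at 0.970, ESCO2, a cohesin acetyltransferase, at 0.969, SPC24 at 0.968, CENPW at 0.966 and MND1 at 0.966. ASPM had within-calf differences of 0.39, 0.60, -1.57 and -0.71 in calves 21, 23, 24 and 25. Of the 10 genes, 9 split by calf pair in the same way (10.6% of all probes), CENPW being the exception. The 10 were picked for likeness to a mean that has this split on the same arrays. Their split therefore follows from the choice and is no separate evidence.

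The wider mitosis list held 80 other gene symbols, some of them names of the same gene. Of these, 63 were tested, 0 passed, 45 had a negative mean (35.6% of all probes) and the median was -0.12. Of the 63, 22 split by calf pair (10.6% of all probes), and the medians in calves 21, 23, 24 and 25 were 0.16, 0.25, -0.50 and -0.34. Its genes of smallest p were TUBB4B, a tubulin (-0.52 ± 0.30, SD, n = 4), TACC3, a spindle adaptor (-0.42 ± 0.27), UBE2S, which extends ubiquitin chains for the anaphase-promoting complex (-0.37 ± 0.27), and CEP55, of abscission (0.69 ± 0.71). MKI67, the usual proliferation marker, had no probe under that name. The list's median was 0.011 under normexp background correction.

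Of 18 condensin and cohesin symbols, with WAPL and WAPAL naming the same gene, 12 were tested, 0 passed and 7 were negative, with a median of -0.016. NIPBL, the cohesin loader, had 0.28 ± 0.20 (SD, n = 4), PDS5B 0.24 ± 0.24, the probe named WAPAL 0.23 ± 0.26 and NCAPH -0.25 ± 0.61. Subunits of the anaphase-promoting complex, which are not made periodically, had 12 of 14 tested, 0 passed, 5 negative and a median of 0.028, with ANAPC5 at 0.15 ± 0.20, ANAPC7 at 0.08 ± 0.18, CDC27 at 0.07 ± 0.15 and ANAPC16 at 0.06 ± 0.23. Among 15 regulators of mitotic transcription, 14 were tested, 0 passed, 5 were negative and the median was 0.074. LIN9 and LIN54, of the MuvB core, had 0.57 ± 0.42 and 0.30 ± 0.30, MYBL2, B-MYB, -0.25 ± 0.27 and FOXM1 0.18 ± 0.11. The regulator median turned negative under quantile, cyclic loess and median scaling.

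In S phase, 30 of 33 replication genes were tested, 0 passed, 24 were negative and the median was -0.14. MCM3, of the replicative helicase, had -0.60 ± 0.33 (SD, n = 4), POLA2, of the priming polymerase, -0.41 ± 0.10, LIG1, the ligase of Okazaki fragments, 0.77 ± 0.53 and ORC1, of the origin recognition complex, -0.35 ± 0.19. Of the 30 replication genes, 3 split by calf pair (10.6% of all probes), and the calf medians were -0.17, 0.078, -0.35 and -0.19. Of 20 G1 genes, 17 were tested, 0 passed, 8 were negative and the median was 0.0068; CDKN1C had 0.40 ± 0.60, CDKN1A -0.20 ± 0.21, CDKN2B -0.18 ± 0.20 and CCNE1 -0.27 ± 0.44. The G1 median was negative under quantile, cyclic loess and median scaling, and that of the anaphase-promoting complex under median scaling. Over all probes, 35.6% had a negative mean, the share to set beside the negative counts of these lists. No difference between these lists was tested.

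**Figure D5:**
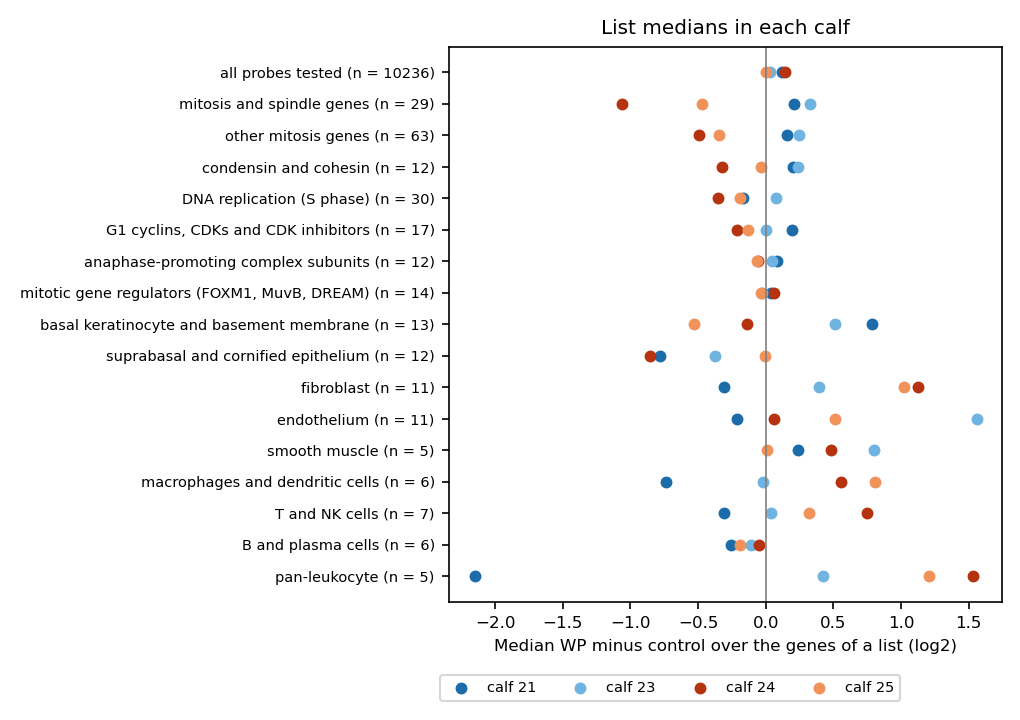
Each line is a gene list with its number of tested genes; the horizontal axis is the median WP minus control over the list in log2 units, with 1 point per calf. The mitosis genes lie at 0.21 and 0.33 in calves 21 and 23 and at -1.06 and -0.47 in calves 24 and 25; basal keratinocyte genes have the same signs, and fibroblast and pan-leukocyte genes are positive in calves 23, 24 and 25 and negative in calf 21.

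Markers of the cells that a rumen sample can hold were read beside these values, as summed level, the sum over a list's genes of signal over the array's 75th percentile. Of 14 basal keratinocyte and basement membrane genes 13 were tested, with a summed level of 199 to 305 on control and 210 to 353 on WP. Their calf medians of 0.79, 0.51, -0.14 and -0.53 had the signs of the mitosis genes. Of the 13, 7 split by calf pair (10.6% of all probes), yet r of all 13 to the mean of the mitosis genes had a median of -0.0068. For 12 of 20 suprabasal and cornified genes the summed level was 147 to 264 on control and 71.1 to 154 on WP, with calf medians of -0.78, -0.38, -0.86 and -0.0017. The 8 pan-epithelial genes summed to 42.0 to 53.7 and 45.1 to 51.0.

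Fibroblast markers (11 of 13) summed to 15.8 to 54.7 on control and 27.2 to 57.8 on WP. Their calf medians were -0.31, 0.39, 1.12 and 1.02, and 0 of 11 split as the mitosis genes did (10.6% of all probes). Endothelial markers (11 of 12) summed to 4.34 to 7.82 and 5.73 to 10.3, and smooth muscle markers (5 of 9) to 11.4 to 18.3 and 15.5 to 20.9. Pan-leukocyte markers (5 of 5) summed to 0.778 to 5.43 and 1.20 to 4.14, with calf medians of -2.15, 0.42, 1.53 and 1.21. T and NK markers (7 of 12; CD3E, CD5, CD4, ZAP70 and KLRB1 did not pass the filter) summed to 1.07 to 2.54 and 1.19 to 2.25. B and plasma markers (6 of 12 symbols, with JCHAIN and IGJ naming the same gene) summed to 3.57 to 5.56 and 3.12 to 3.37. Of that list, CD79A, MS4A1, CR2 and POU2AF1 did not pass. Macrophage and dendritic markers (6 of 10) summed to 4.09 to 10.4 and 4.04 to 7.37. The part of these cell types in the mitosis values was not tested.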

How the data were processed

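Rumen epithelium RNA of 4 calves on 2 diets was read on 8 single-colour arrays. The total RNA, 500 ng, was amplified and labelled with Cy3, per the labels' protocols. The deposited scanner files hold spot intensity and a background-corrected processed signal. Their headers name Agilent Feature Extraction 11.0.1.1, while version 9.5 stands in the submitters' processing notes. A log2 value table was deposited by the authors too; compared column by column with the scanner files, it equalled log2 processed signal minus a constant per array (slopes 0.99998 to 1.00, column medians -3.10 to -2.27), with no centring by gene, and served as an alternative.

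Log2 processed signal was scaled by each array's 75th percentile; control spots (536) and spots marked as outliers (97) were dropped, and the spots of each probe averaged. The 10236 of 15008 probes (68.2%) well above background on at least 4 arrays were fitted in limma 3.58.1 (R 4.3.3), two-sided, with calf and diet as terms, Benjamini-Hochberg adjustment over all of them and a threshold of 0.05. Each gene has 4 within-calf differences, and SD is their spread; the number of arrays limits the precision. A row fit added slide row, and a calf test used the same model. Names came from the array and, for genes outside the list, RefSeq of ARS-UCD2.0 (11194 probes by accession, 3085 by symbol, 38 by older symbol).

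Calf pairing comes from the labels and the cross-over; residuals of a calf's 2 arrays correlated at 0.00897, 0.195, 0.0600 and 0.0475 for calves 21, 23, 24 and 25. Named with array values were the 8 genes of smallest p, the widest range per role, and any gene of 1 sign in 4 calves; outside the list, the 4 of smallest p per pathway list and the 10 most like the mean. Promoters were not analysed here. The members and lists were chosen with earlier results of these data known. The fit was run on simulated data with independent noise per probe, without slide row effects or co-variation of genes. That run checked only whether planted differences were estimated without bias, so it does not bear on the counts called here. Alternatives covered background correction, scaling, filter, block, slide row, prior, threshold and leaving out each calf.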

Additional observations from a re-analysis of the deposited data

Results flagged for a closer look

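Among the WP arrays, KIF20A lay far from the others in 1 calf. Its level was 0.19 in calf 21 against -0.71, -0.65 and -0.73 in calves 23, 24 and 25, a gap to the nearest array of 0.908 of the range, beyond Dixon's critical value for 4 samples. Of 58 groups of 4 values examined, 1 was singled out; chance singles out about 1 in 20.

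The E1A control probes, which lie outside the gene measurements, had a median processed signal of 40.7 on the WP array of calf 24, against at most 1.97 on each other array. The cause was not tested. On that array CDC20, NDC80 and TPX2 were higher than on the control array of the same calf, and 26 of the 29 mitosis genes were lower.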

How the results depend on the processing

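No mitosis gene passed the adjusted threshold for diet under any alternative run. At unadjusted p under 0.05 in limma, the main fit called 1 gene and 715 probes. With slide row as a second block it called 3 genes (RACGAP1, CKS2 and MAD2L1) and 1017 probes. Median scaling gave 2 genes and 717 probes, and the robust prior 0 genes and 705 probes. Without pairing (no replicate block) 0 genes passed. The 24 of 29 lower and the median of -0.25 could not change there, because every calf has both diets. That median was -0.15 with normexp (19 lower), -0.39 with quantile (28), -0.35 with cyclic loess (27), -0.49 with median scaling (29) and -0.25 in the authors' table (25). In the same order, 30.4%, 52.5%, 50.7%, 70.5% and 35.8% of all probes were lower. Scaling moved the all-probe median from 0.09 to -0.15; relative to it the genes lay between -0.37 and -0.26 under all 6 sets of values, although 10 of 29 genes changed sign in at least 1 set. Leaving out 1 calf gave medians from -0.42 to -0.017, 16 to 27 lower and median r from 0.789 to 0.896; without the filter r was 0.746 over 33 genes. Over genes with median signal of at least 100, chosen after seeing the data, 14 of 14 were lower. These genes co-vary (median r 0.919), and no share of all probes at that signal is given, so the count has nothing to be set against. For slide row, 1 gene passed with median scaling and 6 with the robust prior. Differences that turned sign with normexp were RACGAP1 0.023, NDC80 0.18, BUB1 0.040, BUB1B 0.030 and CENPF 0.059. With quantile they were CDC20 -0.30, HMMR -0.33, KIF23 -0.018 and AURKB -0.10. With cyclic loess they were CDC20 -0.25, HMMR -0.14 and AURKB -0.074. With median scaling they were CDC20 -0.19, HMMR -0.090, KIF23 -0.077, AURKB -0.24 and TPX2 -0.089. In the authors' table AURKB alone turned, to -0.00096. Leaving out each calf, HMMR ranged from -0.017 (without calf 21) to 0.29, KIF23 from -0.035 (without 21) to 0.54, CDCA3 from -0.70 to 0.036 (without 24), TTK from -0.49 to 0.19 (without 24), CDC20 from -0.027 (without 24) to 0.14 and NDC80 from -0.31 to 0.47 (without 25). Within row 1 CDC20 was -0.29 and HMMR -0.11, and within row 2 NDC80 was 0.38. The causes were not tested. Each gene has 1 probe, so averaging probes or RefSeq naming could change no value. Signal over background limits NDC80 and the 4 untested genes.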

Other observations

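Some genes ran opposite to the mitosis genes over the 8 arrays; they were chosen after their values were seen. NMRAL1, a redox sensor protein, had r of -0.995 to their mean, SLC15A1, the peptide transporter PEPT1, -0.974, and UGDH, which makes UDP-glucuronate, -0.953. The within-calf differences of UGDH were -0.24, -0.35, 0.70 and 0.57 in calves 21, 23, 24 and 25, the reverse of the mitosis split. These r come from 10236 probes read on the same 8 arrays and are a description.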
